A study of Oryza sativa Indica Group and Oryza sativa Japonica Group with 12 samples.

Results

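Seedlings of the rice mutant osemf2b were compared with seedlings of Dongjin, the japonica cultivar that the labels give for both groups, by H3K27me3 ChIA-PET. ChIA-PET enriches chromatin that carries a chosen mark, ligates DNA ends that lie close together in the nucleus, and sequences the 2 sides of every junction as a paired-end tag (PET). The comparison took 4 of the 12 samples of the series, 2 labelled replicates per genotype, and 2 of its 6 loop lists. The remaining lists came from seedlings and roots of the indica cultivars MH63 and ZS97 and were used only as ranges. The labels name no treatment for any group, the plants' age and the mutant allele are not given in the labels, and the osemf2b locus itself was not analysed here. Members were all listed loops and their anchors, the stretches of DNA that a loop joins. Overlapping anchors of both lists were merged into 10491 regions.

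H3K27me3 is placed by Polycomb repressive complex 2 (PRC2), which keeps developmental genes silent. EMF2 proteins are the plant counterparts of the Su(z)12 subunit of PRC2, and OsEMF2b of rice is known for its part in flowering time and flower development. Chromatin with this mark often forms wide domains, and such domains can contact each other over long distances within and between chromosomes.

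Each list pooled both replicates of its group, so replicate error is unknown for every difference below, and no p-value was computed. Intervals are 95% intervals of counting error alone. PETs were counted after amplification, and the intervals do not cover that step. A loop missing from a list lay below the authors' thresholds, which does not show that the contact was absent. The Dongjin list held 818847 PETs and the osemf2b list 282020. Total tags, the sequenced ends that the authors' p-values were computed with, were 39.4 M and 31.2 M. Tags at an anchor report how much H3K27me3 chromatin was sequenced there, while PETs report the ligations that joined it to other listed anchors.

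The osemf2b list had fewer loops, fewer and narrower anchors, and fewer partners per anchor, whereas the tags at its anchors were not fewer. Loops numbered 0.169 of those in Dongjin (0.166 to 0.171) and anchors 0.645 (0.625 to 0.665), while anchor tags came to 24.2 M against 22.4 M. Anchors held 77.6% of all tags in osemf2b and 56.7% in Dongjin. The median anchor had 178 tags (168 to 187) in osemf2b and 613 (587 to 638) in Dongjin, so the tags lay on fewer anchors. With Dongjin thinned at random to the PETs of osemf2b, the loop ratio was 0.437, and with the highest p-value of both lists made equal it was 0.262. The cause of the lower PET total was not tested.

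The typical anchor was narrower in osemf2b. The median anchor measured 1310 bp (1273 to 1353) in osemf2b and 2414 bp (2346 to 2487) in Dongjin, and anchors under 1 kb made up 39.2% and 21.3%. The wide end of the distribution did not follow: the 95th percentile was 15.8 kb in osemf2b and 15.9 kb in Dongjin, and anchors of at least 50 kb numbered 37 against 21. By width in Dongjin, the median log2 width ratio per region in both lists was −0.27 under 1 kb, −1.30 at 2 to 5 kb, −1.41 at 5 to 10 kb, −0.90 at 10 to 20 kb and −0.04 (−0.13 to 0.01) at 20 to 50 kb. In 4063 regions made of exactly 1 anchor in each list, the osemf2b anchor was narrower in 81.8%, with a median width ratio of 0.511 (0.493 to 0.533). Of the Dongjin anchors, 944 lay over several osemf2b anchors, up to 9, so a Dongjin domain was at times listed in pieces. The opposite, an osemf2b anchor over several Dongjin anchors, was found for 105 anchors. Among loops of at least 5 PETs the ratio of median widths was 0.797, against 0.543 over all loops.

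Partners, the number of different anchors that an anchor was joined to, had a median of 3 in osemf2b and 13 in Dongjin. Anchors with a single partner made up 22.6% (21.6 to 23.6) in osemf2b and 1.76% (1.52 to 2.03) in Dongjin. In the lists of the other groups this share was between 0.757% and 7.54%, with Dongjin included in the range. With Dongjin thinned, the ratio of median partners was 0.743, against 0.231 unthinned, and among loops of at least 5 PETs it was 0.50.

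Few positions were gained. Of the osemf2b anchors 96.4% overlapped a Dongjin anchor, and 242 of the 10491 regions had a loop in osemf2b alone. A loop in Dongjin alone was listed for 5160 regions, but these held 11.7% of the Dongjin anchor tags. The other 5089 regions had loops in both lists.

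The change in tags varied with how wide a region was in Dongjin. Of the Dongjin regions under 1 kb, 14.4% had a listed loop in osemf2b, of those of 5 to 10 kb 80.4%, and of those of at least 50 kb all 36. Tags were scaled on total tags for this comparison. Leaving the scaling out lowers every log2 tag ratio by 0.34. Among regions with loops in both lists, tags were at least 2-fold higher in osemf2b in 710 (14.0% of those compared) and at least 2-fold lower in 3406 (67.0%). The median log2 tag ratio was −2.35 (−2.43 to −2.24) in regions of 2 to 5 kb and −1.02 (−1.34 to −0.73) in those of 10 to 20 kb. It was 1.00 (0.76 to 1.21) in the 299 regions of 20 to 50 kb and 1.32 (0.83 to 1.77) in the 36 regions of at least 50 kb. Tags were counted only inside the listed anchors, so narrower anchors leave tags uncounted. The median log2 width ratio was −1.30 at 2 to 5 kb, −0.90 at 10 to 20 kb and −0.04 at 20 to 50 kb. Over all anchors of each list, unscaled tags per kb had a median of 144 (140 to 147) in osemf2b and 259 (256 to 262) in Dongjin. The 95th percentile was higher in osemf2b, at 1300 against 678. How much of the lower tags goes with the smaller width was not tested. Domains of 20 to 50 kb held 26.2% of the Dongjin anchor tags and 42.5% of those of osemf2b. Domains of at least 50 kb held 10.9% and 19.3%.

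The tag ratios formed 2 peaks rather than a single shifted one. In steps of 0.5 on the log2 scale, 585 regions lay between −2.5 and −2, the fewest between the peaks were the 208 from 0 to 0.5, and 282 lay between 1 and 1.5. Partners were fewer on both sides of this divide. Of the 710 regions with at least 2-fold more tags, 676 (95.2%) had fewer partners in osemf2b, with a median of 13 against 37.5 in Dongjin. Their partners were joined by more PETs each, with a median of 14.5 PETs per partner against 7.88. Over all 5089 regions, 37 (0.727%) had more partners in osemf2b.

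**Figure D1:**
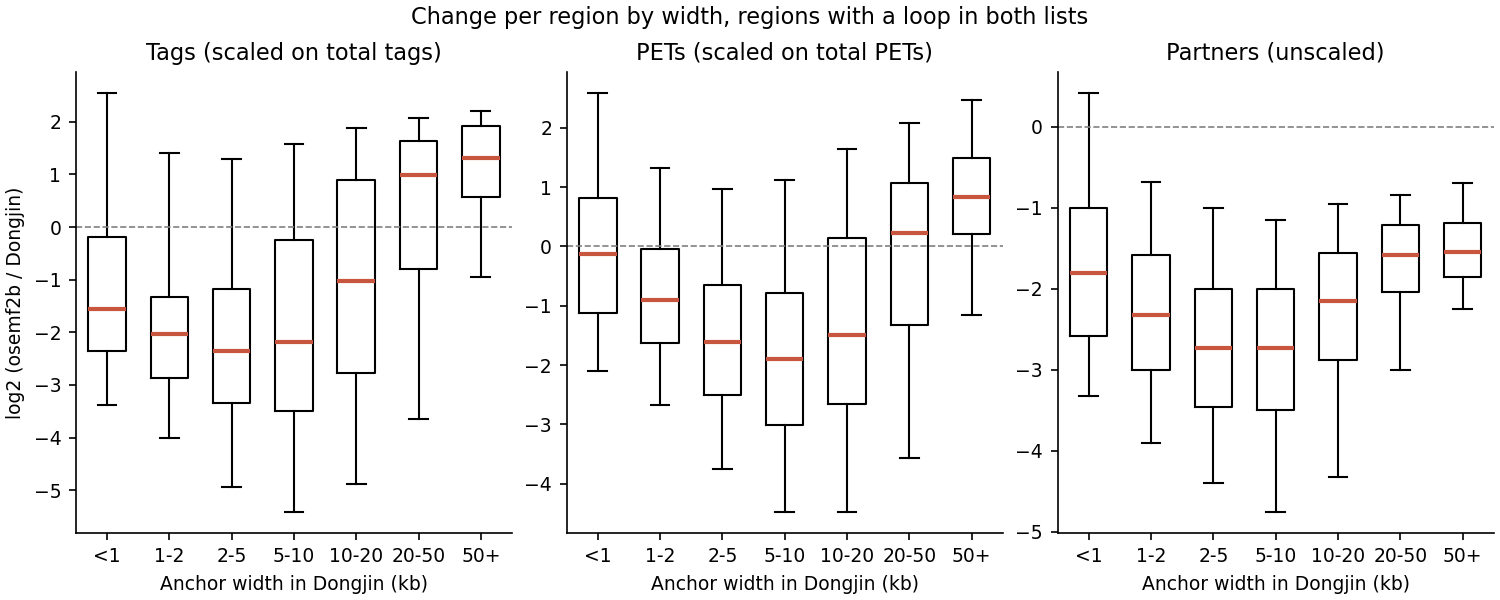
The log2 ratio of osemf2b over Dongjin per region is shown for tags, PETs and partners, by the width of the region's anchors in Dongjin in kb, for regions with a loop in both lists. Boxes span the quartiles, red lines are medians and whiskers reach the 5th and 95th percentiles. Tag medians run from −2.35 at 2 to 5 kb to 1.32 at 50 kb or more, and every partner median is below 0.

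Regions named below were ranked on PETs scaled on the total of each list. Of 8032 regions compared, 412 (5.13%) were called higher in osemf2b, meaning at least 2-fold with an interval excluding 1, and 5934 (73.9%) lower. Over regions with loops in both lists, 8.07% were called higher and 56.7% lower. Scaled on total tags, 94 were higher and 7123 lower, and with no scaling 60 and 7348.

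Among the 2727 regions with loops in both lists and at least 100 PETs over both, the 6 highest ratios lay on chromosomes 3, 4 and 12. On chromosome 3, the region 1267586 to 1279199 had 42 PETs in Dongjin and 237 in osemf2b, a scaled ratio of 16.4 (11.8 to 23.3), with tags of 338 and 10268. The neighbouring region 1291967 to 1312830 had 132 and 524 PETs, a ratio of 11.5 (9.51 to 14.1), with tags of 2558 and 25475. Tags were higher in both regions, while partners went from 10 to 11 in the first and from 39 to 24 in the second. On chromosome 4, the region 12050404 to 12076152 had 470 PETs in Dongjin and 1583 in osemf2b, a ratio of 9.78 (8.82 to 10.9). Its tags were 14421 and 56933, and its partners 66 and 29. The 3 regions on chromosome 12 began at 1566911, 5793076 and 13510033 and had ratios of 7.89 (6.49 to 9.64), 14.5 (8.81 to 25.2) and 8.23 (6.46 to 10.6). In none of these 6 regions were the osemf2b tags lower.

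The 6 lowest of the same 2727 regions nearly lost their listed contacts, and 3 of them lay on chromosome 11. Counts under 3 PETs entered the ranking as 3, which sets part of the order among them. The region 24788329 to 24814883 on chromosome 11, 26.6 kb wide, had 1534 PETs and 79 partners in Dongjin and 10 PETs and 4 partners in osemf2b. Its scaled ratio was 0.0189 (0.00906 to 0.0349), and its tags were 9229 and 607. On the same chromosome, 4596106 to 4609530 had 575 PETs in Dongjin and 3 in osemf2b, and 17479533 to 17488596 had 510 and 2. On chromosome 3 the region 14105722 to 14117482 had 706 and 4 PETs. The chromosome 5 region 21262209 to 21272872 had 465 and 2 PETs. The chromosome 6 region 6262766 to 6270491 had 429 and 2. In each of them the tags were lower in osemf2b as well.

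Some strongly connected Dongjin regions had no listed loop in osemf2b. The one with the most PETs was 18421420 to 18427124 on chromosome 11, with 990 PETs, 45 partners and 3161 tags. On chromosome 6, 21004092 to 21021953 had 880 PETs, and again on chromosome 11, 23039695 to 23056692 had 873. A pair of neighbours on chromosome 7, 2111909 to 2118250 and 2153205 to 2156857, had 694 and 756 PETs. In the other direction the values were smaller. The region 5967393 to 5973156 on chromosome 4 had 212 PETs, 9 partners and 2711 tags in osemf2b and no listed loop in Dongjin, and the next 5 had between 52 and 92 PETs.

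By chromosome, loop and anchor numbers were lower by similar factors, whereas PETs and tags were not. Loops within a chromosome had ratios from 0.109 (0.0993 to 0.120) on chromosome 3 to 0.177 (0.163 to 0.192) on chromosome 7. Anchor ratios lay between 0.610 and 0.718, ratios of median width between 0.497 and 0.618, and ratios of mean partners between 0.228 and 0.296. Unscaled PETs of loops within a chromosome ranged more widely, from 0.149 (0.147 to 0.152) on chromosome 11 to 0.795 (0.785 to 0.805) on chromosome 12. Scaled on list totals, the PET ratios were 0.434 and 2.31 on these chromosomes. They were also above 1 on chromosomes 7, 8 and 9, at 1.21, 1.08 and 1.12, and below 1 on the rest. Tags, unscaled, had their extremes on the same chromosomes, with a ratio of 0.780 (0.778 to 0.781) for chromosome 11 and of 1.56 (1.56 to 1.57) for chromosome 12.

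Chromosomes 11 and 12 changed places in their shares of the list. Loops within chromosome 11 held 12.2% of the PETs of the Dongjin list and 5.29% of those of osemf2b. For chromosome 12 the shares were 6.55% and 15.1%. On chromosome 12, loops of at least 100 PETs held 34.4% of its PETs in Dongjin and 83.9% in osemf2b, although its loops numbered 605 against 4057. The domain 19276316 to 19426772 alone took part in 12.6% of the PETs within chromosome 12 in Dongjin and 33.2% in osemf2b. Without its loops, a calculation added after seeing the data, the unscaled PET ratio of chromosome 12 was 0.608 (0.599 to 0.617). On chromosome 11 the median span of loops went from 310 kb (292 to 328) to 119 kb (101 to 138), and its hubs from 27 of 106 to 8 of 68.

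**Figure D2:**
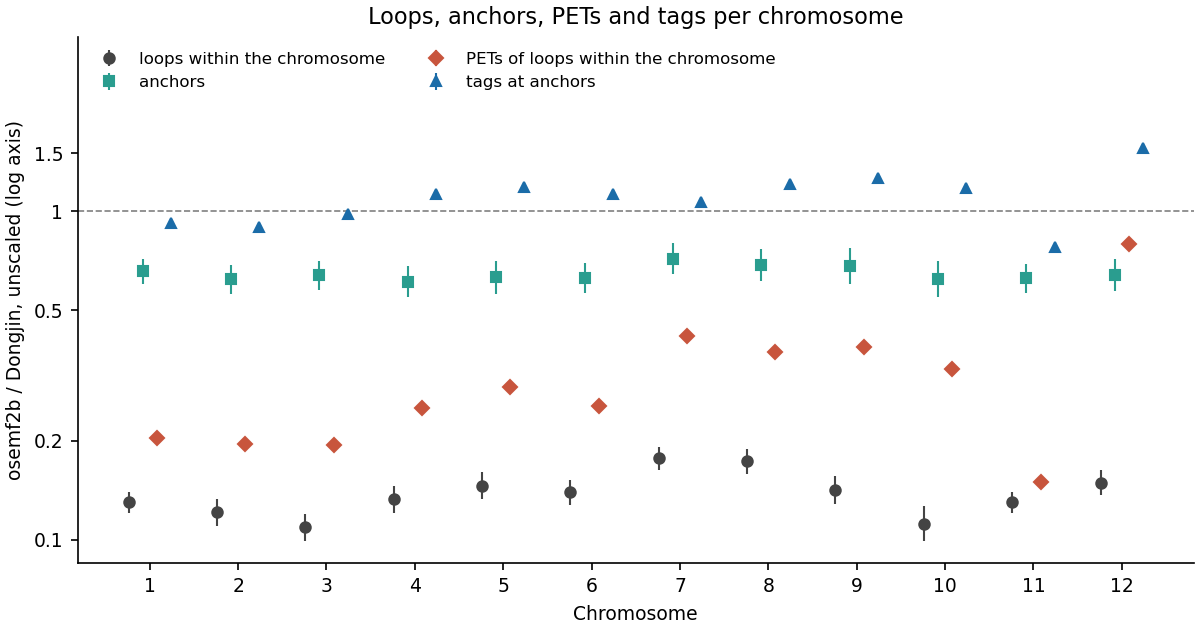
Ratios of osemf2b over Dongjin for each of the 12 chromosomes, unscaled, on a log axis: loops within the chromosome, anchors, PETs of those loops and tags at anchors. Bars are 95% intervals of counting error, hidden behind the symbol where small; loop ratios stay between 0.109 and 0.177, while PET ratios run from 0.149 on chromosome 11 to 0.795 on chromosome 12.

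Along the chromosomes the change was patchy. In 1 Mb windows with at least 500 PETs over both lists, 29 of 349 (8.31%) had at least 2-fold more scaled PETs in osemf2b and 174 (49.9%) at least 2-fold fewer. Scaled on total tags, 0.287% were higher and 74.8% lower. Chromosome 12 had 7 of the 29 higher windows and chromosome 6 had none. Neighbouring windows were weakly related, with a Pearson r of 0.28 over 322 pairs, given as a description since a loop can enter both windows. Scaled tags had a median window ratio of 1.00 and ranged from 0.0681 to 4.71, with 175 of the 349 windows above 1. Partners, in contrast, were fewer in every one of the 349 windows, with ratios from 0.0381 to 0.496.

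The window with the highest ratio was 25 to 26 Mb on chromosome 12, with 18898 PETs in Dongjin and 33834 in osemf2b, a scaled ratio of 5.20 (5.11 to 5.29). Next came 5 to 6 Mb on chromosome 4 at 4.10 (3.94 to 4.28), 19 to 20 and 24 to 25 Mb on chromosome 12 at 4.08 and 3.96 (3.86 to 4.07), and 2 to 3 Mb on chromosome 10 at 3.69 (3.59 to 3.79). In each of these windows 1 wide anchor carried a larger share of the tags in osemf2b than the leading anchor did in Dongjin. On chromosome 10 it was 2372730 to 2441889, with 52.8% of the window's tags, against 33.7% for the Dongjin anchor 2383366 to 2436555. On chromosome 4 it was 5888868 to 5944159, 55.3 kb wide with 40.9%.

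The 5 lowest windows had no osemf2b anchor wider than 6.16 kb. The window from 11 to 12 Mb on chromosome 9 had 2492 PETs in Dongjin and 55 in osemf2b, a ratio of 0.0641 (0.0481 to 0.0837). Its widest anchor measured 15.8 kb in Dongjin and 2.29 kb in osemf2b. The window from 6 to 7 Mb on chromosome 6 had 5203 and 124 PETs, a ratio of 0.0692 (0.0574 to 0.0827), and its widest anchors measured 18.3 and 5.89 kb. The other windows were 22 to 23 Mb on chromosome 10, 18 to 19 Mb on chromosome 4 and 18 to 19 Mb on chromosome 2, with ratios of 0.0751, 0.0771 and 0.0798. Tags were lower in all 5, with scaled ratios from 0.0815 to 0.252.

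By distance from the nearer chromosome end, taken from the outermost anchors, the shares moved less than in the single windows above. Anchors 2 to 4 Mb from an end held 16.8% of the anchor tags in Dongjin and 20.1% in osemf2b, and 17.9% and 26.7% of the PET ends. Anchors within 1 Mb of an end held 7.10% and 6.30% of the tags. Anchors 10 to 15 Mb away held 20.3% and 18.0% of the tags.

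**Figure D3:**
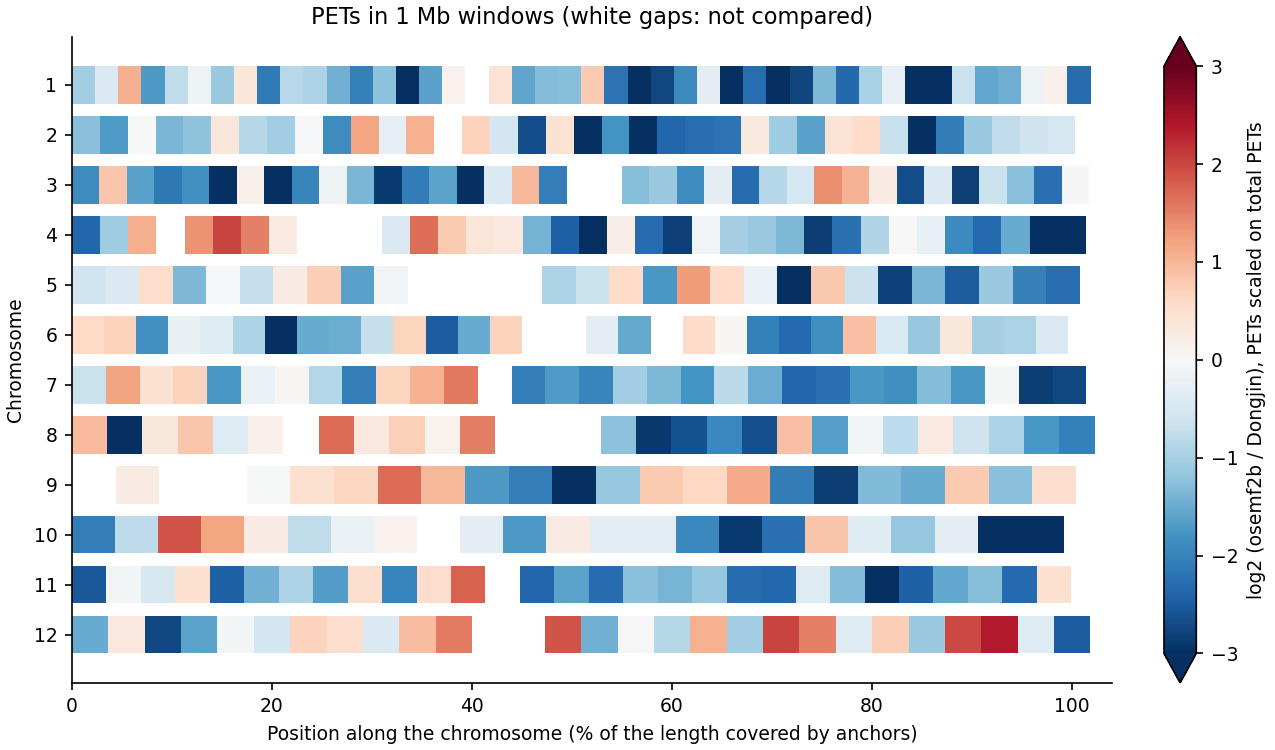
Log2 ratio of scaled PETs, osemf2b over Dongjin, in 1 Mb windows along each chromosome, with position as a percentage of the length covered by anchors; red is higher in osemf2b, blue is lower, colours saturate at −3 and 3, and white gaps were not compared. Red windows are scattered singly or in short runs, with the highest near the end of chromosome 12.

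Hubs were defined as the 1% of anchors with the most partners in each list, ties included. This gave 106 hubs in Dongjin, with at least 78 partners, and 68 in osemf2b, with at least 32. All of them overlapped an anchor of the other list. A hub of osemf2b overlapped 41.5% (32.0 to 51.5) of the Dongjin hubs, and 61.8% (49.2 to 73.3) of the osemf2b hubs overlapped a Dongjin hub. With hubs taken as anchors of at least 20 partners in either list, 9.43% (8.47 to 10.5) of the Dongjin hubs were kept. The osemf2b hubs were wider, with a median of 47.3 kb against 35.5 kb, and had more tags, with a median of 89875 against 29844. They had 75.9 PETs per partner on average, against 30.2, and 51.4% of their partners lay on other chromosomes, against 36.3%.

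The best-connected domain of both lists, on chromosome 12 at 19276316 to 19426772 in osemf2b, had 49 partners on its own chromosome against 176 in Dongjin, but 50 against 56 on other chromosomes. The domain 5537972 to 5674372 on chromosome 1 covered 3 Dongjin anchors with 141741 tags and had 379798 tags in osemf2b. It had 82 partners, against 145 for the best-connected of the 3, and 6203 PETs against 11993 summed over them. On chromosome 5, the domain 18219309 to 18313973 covered 5 Dongjin anchors and had 193206 tags, against 57124 summed over the 5. The domain 1860936 to 1969128 on chromosome 7 had 75 partners against 103 and 188968 tags against 103552. Each of the 8 best-connected osemf2b anchors had more tags and fewer partners than the Dongjin anchors at its place.

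Among the leading Dongjin hubs, 2 neighbours on chromosome 11 had fewer tags in osemf2b. The domain 18530786 to 18627588 had 107222 tags and 15767 PETs in Dongjin, and the 3 osemf2b anchors at its place had 27344 tags and 1568 PETs in all. Its neighbour 18371461 to 18400146 had 26422 tags and 5540 PETs, against 4849 tags and 487 PETs over 4 osemf2b anchors. Scaled on total tags, the tag ratios of these 2 domains were 0.322 and 0.232. At 25803300 to 25900199, also on chromosome 11, the tags were 93297 and 76576, a scaled ratio of 1.04, while the PETs were 6815 and 1048. The 158 kb domain on chromosome 2, 17161342 to 17319615, was listed as 6 osemf2b anchors, with tags of 140558 and 105584, a scaled ratio of 0.950.

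Loops between 2 hubs held a larger share of the PETs in osemf2b. Within chromosomes, 44.8% (40.9 to 48.7) of the possible hub pairs were joined in Dongjin and 36.8% (29.8 to 44.1) in osemf2b. Those loops held 7.34% of the PETs of the Dongjin list and 17.6% of those of osemf2b. Between chromosomes, 11 of 4915 possible hub pairs (0.224%, 0.112 to 0.400) were joined in Dongjin, with a median of 35 PETs. In osemf2b 12 of 2093 (0.573%, 0.297 to 0.999) were joined, with a median of 606. Relative to the number expected from the tags of both anchors, defined below, these hub loops were lower in osemf2b. The median was 1.14 times expected (1.10 to 1.29) against 1.73 (1.52 to 1.97) between chromosomes. Within chromosomes it was 1.41 (1.26 to 1.75) against 3.38 (3.00 to 3.92).

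**Figure D4:**
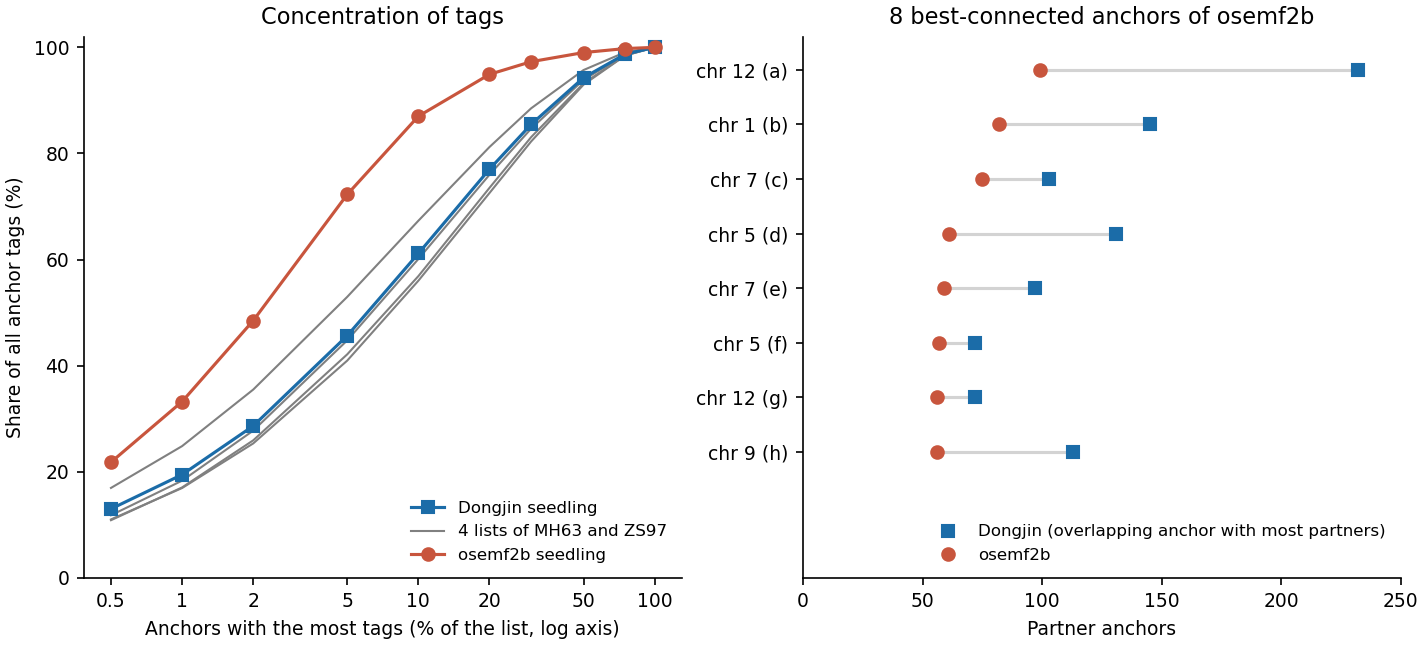
Left, share of all anchor tags (%) held by the anchors with the most tags (% of the list, log axis), for osemf2b, Dongjin and the 4 lists of MH63 and ZS97. Right, partner number of the 8 best-connected osemf2b anchors and of the overlapping Dongjin anchor with the most partners. The top 10% of anchors hold 87.0% of the anchor tags in osemf2b and 61.1% in Dongjin, and all 8 osemf2b anchors lie left of Dongjin.

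The concentration of tags in osemf2b lay outside the range of the other lists. The 10% of anchors with the most tags held 87.0% of the anchor tags, against 56.0% to 67.3% in the other 5 lists. Anchors with at least 100000 tags numbered 32, against 6 in Dongjin and 0 to 7 over the other 5 lists. Loops of at least 100 PETs between chromosomes numbered 107, against 3 in Dongjin and 1 to 13 over the other 5 lists. Those 5 lists differ in genotype, tissue and depth.

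Pairs of chromosomes also differed in what they lost. Over the 66 pairs, loop ratios lay between 0.155 and 0.301, while unscaled PET ratios ran from 0.213 to 1.63. Chromosomes 10 and 12 had 458 loops with 1233 PETs in Dongjin and 98 loops with 2007 PETs in osemf2b, a PET ratio of 1.63 (1.52 to 1.75). A single loop, from the chromosome 10 domain 2691766 to 2744912 to the chromosome 12 domain 19276316 to 19426772, held 1586 of those 2007 PETs. The pairs 5 and 9, 4 and 10, and 6 and 12 had ratios of 1.41 (1.31 to 1.51), 1.38 (1.29 to 1.49) and 1.35 (1.27 to 1.44), and for 3 and 12 the interval included 1.

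To set contacts against the amount of marked chromatin, the PETs of each loop were divided by the number expected if tags joined at random. That number is the tags of one anchor times those of the other, over total tags. PETs were left unscaled here, unlike in the comparison of regions and windows. Summed over loops within chromosomes, PETs were 14.1 times expected in Dongjin and 2.87 times in osemf2b, and between chromosomes 9.09 and 2.12 times. The other 5 lists, Dongjin included, lay between 9.43 and 29.6 within and between 8.53 and 12.7 between chromosomes. The sums are led by the loops with the most tags. The median loop within chromosomes was at 38.8 times expected (38.2 to 39.5) in Dongjin and 38.0 (35.7 to 40.4) in osemf2b. Between chromosomes the median was 27.1 (26.9 to 27.3) and 45.6 (44.8 to 46.6). Every listed loop had passed the authors' threshold on this same expectation, so low values are cut off.

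Loops close to the random expectation carried much of the osemf2b list. Loops under 2 times expected held 33.6% of the PETs within chromosomes in osemf2b and 1.95% in Dongjin. Between chromosomes they held 54.8% and 2.28%. The loop of 1586 PETs between chromosomes 10 and 12 had 1456 expected PETs, a ratio of 1.09. The strongest interchromosomal loop of Dongjin, from the chromosome 11 domain 18530786 to 18627588 to the chromosome 5 region 27989863 to 27997373, had 309 PETs against 11.1 expected, a ratio of 27.9.

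At equal tag products the medians of the lists differed less than the sums over all loops, and not always in the same direction. Where the log10 of the tag product lay between 7 and 8, loops within chromosomes had a median of 11.3 times expected in Dongjin (11.2 to 11.4) and 11.4 in osemf2b (10.9 to 11.8). From 5 to 6 the medians were 253 (246 to 258) and 170 (162 to 179). The median loop of that class had 2 PETs in both lists, the lowest count listed. Between chromosomes from 6 to 7 the medians were 29.5 (29.3 to 29.7) and 41.3 (40.9 to 41.7), with a median of 2 PETs in Dongjin and 3 in osemf2b. Medians so near the lowest count depend on the thresholds, the tags and total tags, so these differences do not compare contacts. From 8 to 9 within chromosomes the medians were 3.91 and 3.77, and from 9 to 10 they were 2.37 (2.01 to 2.83) and 1.75 (1.66 to 1.87). Summed PETs over expected within chromosomes were lower in osemf2b in these classes, at 16.2 against 22.4 from 7 to 8, 5.40 against 8.30 from 8 to 9, and 2.35 against 5.64 from 9 to 10. The lists also differed in where their PETs lay. Loops within chromosomes with a log10 product of 9 to 10 held 8.58% of the PETs of Dongjin and 24.5% of those of osemf2b. A further 17.4% lay at 10 to 11, a class with no point for Dongjin in the plot of PETs over expected.

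**Figure D5:**
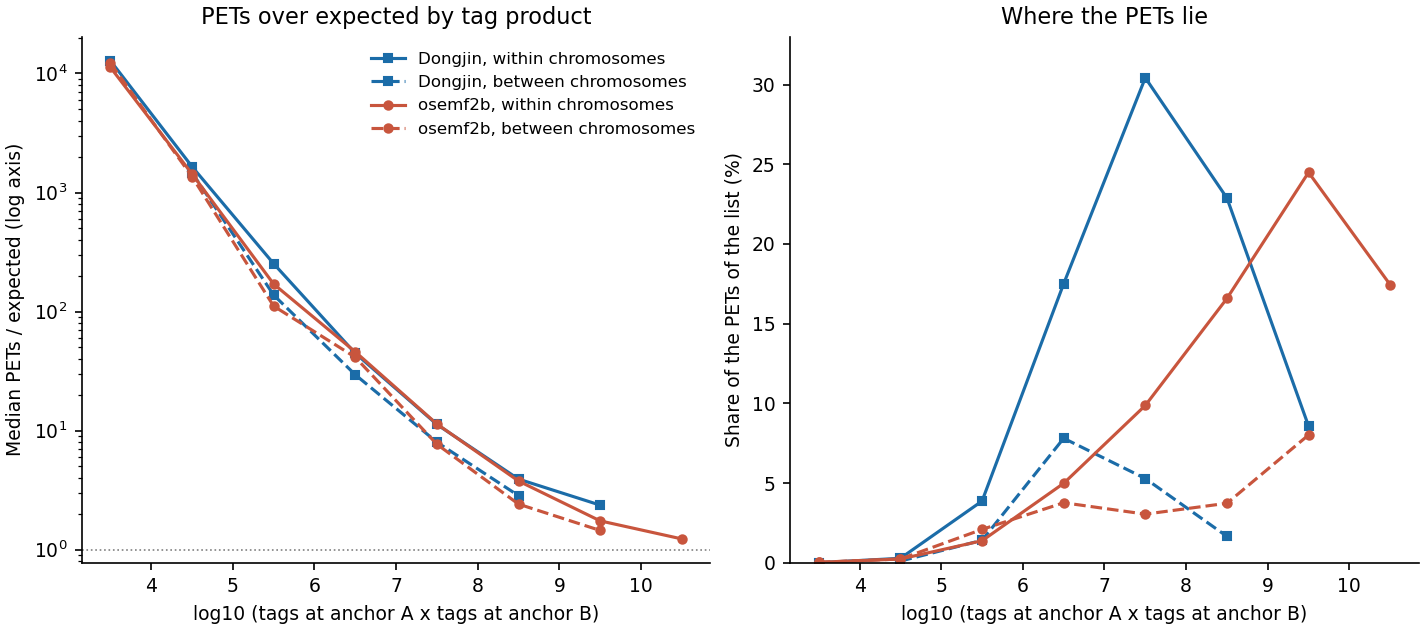
Left, median PETs over expected (log axis) and right, share of the PETs of the list (%), by the log10 product of the tags at both anchors, for loops within chromosomes (solid) and between them (dashed); classes with few loops are left out. Medians fall with the product in both lists. Those at 5 to 6 within chromosomes (253 in Dongjin and 170 in osemf2b) come from loops with a median of 2 PETs, the lowest count listed. The PETs of osemf2b lie at higher products, with 24.5% at 9 to 10 within chromosomes.

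Pairs of regions joined in both lists gave a matched comparison. There were 3834 such pairs, 4.12% of the pairs of Dongjin and 26.4% of those of osemf2b. Within chromosomes the shares were 7.83% and 69.7%. The median log2 ratio of PETs over expected was −0.77 (−0.83 to −0.69), and 66.1% of pairs were lower in osemf2b. It was −1.78 (−1.86 to −1.71) over the 1106 pairs with at least 20 PETs in each list, 96.7% of which were lower. Over pairs whose anchor widths differed by less than 1.5-fold it was −1.76 (−1.82 to −1.70). PETs entered these ratios unscaled. Scaling them on list totals adds 1.54 to every log2 ratio in this paragraph, which puts the median over all shared pairs above 0. The medians over the 1106 pairs and over pairs of similar width stay below 0. Between chromosomes the 69 shared pairs had a median of 0.88 (0.05 to 1.35). By chromosome the median ran from −0.15 (−0.40 to 0.03) on chromosome 3 to −1.28 (−1.50 to −1.04) on chromosome 12. Pairs whose expected PETs were over 4-fold higher in osemf2b had a median of −2.37, and pairs whose expectation was over 16-fold lower had 2.03. Part of that relation is built in, because the expected PETs are the divisor and pairs below the thresholds are missing.

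The strongest osemf2b loop, between 25104863 to 25178169 and 25189471 to 25239138 on chromosome 12, had 2746 PETs against 784 expected, a ratio of 3.50. Between the same domains Dongjin had 1549 PETs over 5 loops and a ratio of 25.3. The loop from 19276316 to 19426772 to the first of them, 5.79 Mb away, had 2265 PETs in osemf2b and 218 in Dongjin. Its ratio to expected was 1.19 in osemf2b and 1.68 in Dongjin. Both pairs had more PETs and a lower ratio to expected in osemf2b. On chromosome 8, the pair 7814626 to 7823264 and 7831931 to 7837983 had 56 and 68 PETs, with PETs over expected of 220 in Dongjin and 0.0547 of that in osemf2b.

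Among pairs with at least 20 PETs in each list, the few with a higher ratio in osemf2b included regions that lost tags. The chromosome 11 region 18527869 to 18628123 and the same chromosome 5 region, 27989863 to 27997373, had 309 PETs in Dongjin and 50 in osemf2b, at 27.9 and 164 times expected. On chromosome 3, 31115936 to 31123324 and 33377085 to 33388038, 2263 kb apart, had 37 and 72 PETs, at 39.1 and 166 times expected. Tags at this chromosome 3 pair were 4165 and 2004 at the first region and 8955 and 6767 at the second. At both pairs PETs over expected were higher and tags lower in osemf2b. Both were named for a high ratio whose divisor holds the product of the tags, so part of this relation is built in.

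By span, loop number and PETs changed by different factors. The ratio of median spans within chromosomes was 0.490 (0.464 to 0.519). Loops between chromosomes gained 9.67 percentage points (8.84 to 10.5) as a share of the list, and 28.2 with Dongjin thinned. Over the other 5 lists, Dongjin included, this share lay between 47.6% and 71.8% and the median span between 103.4 and 211.6 kb. The osemf2b list, with 57.2% and 103.8 kb, lay inside both ranges. Dongjin had the lowest share and the longest median span of those 5. Loops of 1 to 5 Mb had the lowest loop ratio, 0.0818 (0.0746 to 0.0896), and an unscaled PET ratio of 0.573 (0.565 to 0.582). Loops under 20 kb had a loop ratio of 0.248 (0.231 to 0.266) and the lowest PET ratio, 0.173 (0.170 to 0.176). The median PETs over expected was lower in osemf2b in every class up to 1 Mb, with 142 against 399 under 20 kb and 44.3 against 121 from 20 to 100 kb. From 1 to 5 Mb the median was 26.0 against 13.1 and above 5 Mb 47.2 against 25.3, higher in osemf2b. Median expected PETs of these loops were lower in osemf2b, at 0.131 against 0.252 and 0.0444 against 0.0827. Each listed loop had at least 2 PETs, so these medians depend on the threshold. The summed values were lower in osemf2b, at 1.32 against 3.44 and 1.66 against 4.10. With PETs unscaled, region pairs joined in both lists had median log2 ratios of −0.46 (−0.67 to −0.10) from 1 to 5 Mb and −0.36 (−1.50 to 0.21) above 5 Mb.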

How the data were processed

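H3K27me3 chromatin was double cross-linked, joined through a bridge linker and read as 150 bp paired ends, per the labels' protocols. The authors deposited 1 loop list per group, with 15 columns and no header. PETs per loop and tags per anchor are deposited raw counts, without any scaling. The lists also hold the authors' p-values, with no deposited false discovery rate above 0.0499, and each listed loop had at least 2 PETs. Which software called the loops and aligned the reads, and against which build, is not stated in the labels. Coordinates are printed as 1-based, with 1 added to the starts that the lists give and the ends unchanged. No gene is named because no annotation of that build was used here.

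Total tags were solved from the deposited Poisson p-values, using loops of 2 PETs whose anchors both had over 200 tags. Lists were compared with Python 3.11.15, pandas 2.3.3, numpy 2.4.6 and scipy 1.17.1. Regions were compared from 20 PETs summed over both lists, with counts under 3 entering the ratio and the ranking, though not the interval, as 3 PETs, and no fold is printed from that floor. Intervals are exact binomial for shares and for ratios of loops, anchors, PETs and tags, and order statistics for medians. For the ratio of median spans and the change in interchromosomal share, the intervals of both lists were combined. The calling steps were tested on simulated data. Regions, windows, loops and pairs were named by rank: the 8 best-connected anchors per list, the 6 highest, lowest or list-specific regions, 5 windows, 5 loops and 5 pairs each way, of which some are printed. Members, lists and rules were chosen with earlier results of these data known. Fits with other thresholds, scalings and window sizes were run as alternatives.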

Additional observations from a re-analysis of the deposited data

How the results depend on the processing

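No paired analysis was possible because each list pools both replicates, and for the same reason no replicate could be left out. Among the alternatives run, no direction reversed. They did not include scaling on list totals for PETs over expected or for the PETs of chromosomes. With that scaling, the median over all shared pairs and the PET ratios of some chromosomes changed direction, as given above. With loops of at least 3 PETs, at least 5 PETs, Dongjin thinned (20 draws, its anchors kept as deposited) and a common highest p-value, the loop ratio was 0.178, 0.189, 0.437 and 0.262, the gain in the interchromosomal share 13.5, 15.4, 28.2 and 23.5 percentage points (9.67 over all loops), and the ratio of median spans 0.524, 0.604, 0.659 and 0.703 (0.490). Within chromosomes alone the loop ratio was 0.137. The width ratio was 0.604, 0.797 and 0.461 under the first 3 of these, 0.668 within chromosomes and 0.824 with anchors weighted by their loops. The partner ratio was 0.333, 0.50 and 0.743, and 0.286 within chromosomes. Dongjin hubs kept were 54.7% for the top 5% of anchors and 9.43% for anchors with at least 20 partners. Regions called higher numbered 94 scaled on total tags, 60 unscaled and 125 at 4-fold, and regions called lower 2709 in both lists, 2232 with at least 100 PETs and 3719 at 4-fold. Windows called higher were 0.287% scaled on total tags, and windows called lower 37.2% at 2 Mb, 74.8% scaled on total tags and 56.0% within chromosomes. The median log2 ratio of PETs over expected was −1.04 and −1.34 at 3 and 5 PETs, −0.32 with total tags taken as the sum over anchors, and −1.76 for pairs with widths within 1.5-fold. The cause of these shifts was not tested. The other 18 values of these results stayed within the interval or within 1.5 times the count. For the named regions and windows and for chromosome 12, 47 values moved outside their interval and 17 stayed. With loops within chromosomes only, the log2 PET ratio of the chromosome 4 region beginning at 12050404 was 1.01 instead of 3.29. For the chromosome 12 region beginning at 5793076 it was 2.47 instead of 3.86. Unscaled, the highest window had 0.84 instead of 2.38. Loops near the threshold of 2 PETs depend on depth. The PET total of the listed loops in osemf2b was 0.344 of that of Dongjin, but it depends on loop calling as well as on depth. Total tags were 31.2 M in osemf2b and 39.4 M in Dongjin. Thinning to that PET total kept loops of at least 2 PETs and did not apply the p-value threshold again. How far depth sets the loop number was not tested.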
